A study of Mus musculus with 2 samples.

Results

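The clustered protocadherins were followed here in open chromatin of the mouse frontal cortex. They are the protein-coding genes of chromosome 18 whose GENCODE symbols begin with Pcdha, Pcdhb or Pcdhg, and there were 57 of them among 21938 protein-coding genes. By family they were 14 Pcdha, 22 Pcdhb and 21 Pcdhg genes. Of these, 5 are the C-type members Pcdhac1, Pcdhac2, Pcdhgc3, Pcdhgc4 and Pcdhgc5, and the other 52 are called the variable members. The open regions across the clusters and 200 kb on either side were taken along with the genes, and there were 71 of them among 109538 in the genome.

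The clustered protocadherins are cell surface adhesion proteins that bind copies of themselves on a neighbouring membrane, and they let a neuron tell its own branches from those of other neurons. Each Pcdha and Pcdhg gene consists of a large variable first exon with a promoter of its own, which is spliced to constant exons shared by the family, whereas each Pcdhb gene stands alone in a large exon. A neuron is known to use a small, largely random choice of the variable promoters, while the C-type promoters are used more widely. The choice involves the DNA-binding protein CTCF, the cohesin ring, DNA methylation and enhancers that lie downstream of the Pcdha and Pcdhg clusters.

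The tissue was taken from 25-day-old female mice of the strain B6CASTF1/J, an F1 cross of C57BL/6J and CAST/EiJ, and there was 1 group with 2 libraries and no comparison between conditions. In DNase-seq the enzyme DNase I cuts DNA that nucleosomes do not shield, and the cut ends are sequenced. The labels give both libraries a biosample of its own but the same donor identifier, so the spread between them need not be one between animals.

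The deposited peak lists held 85603 peaks in replicate 1 and 87847 in replicate 2, and the authors' read-depth normalized signal of a peak, called its value, had a median of 0.627 and 0.679. Peaks came from whole tissue, in which fewer cells with an open promoter and a weaker opening in each cell cannot be told apart. Promoters of pan-neuronal markers were called in both libraries for 4 of 5 genes, and those of excitatory neurons for 4 of 6. The counts were 2 of 5 for inhibitory neurons, 2 of 5 for astrocytes, 1 of 5 for oligodendrocytes, 1 of 4 for endothelial cells and 0 of 4 for microglia, and 53.1% of all protein-coding genes were called in both libraries. Reads of CAST/EiJ alleles were aligned to the mm10 genome, and the part this plays in the values was not tested.

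A promoter peak was a peak that overlapped the 1 kb on either side of the start site (TSS) of the transcript with the longest first coding segment. Of the 57 clustered protocadherins, 7 (12.3%) had a promoter peak in both libraries, where 53.1% of all protein-coding genes had one. The 7 were 4 of the 5 C-type members (80%) and 3 of the 52 variable members (5.77%). By family they were 2 of 14 Pcdha genes (14.3%), 2 of 22 Pcdhb genes (9.09%) and 3 of 21 Pcdhg genes (14.3%). A further 4 members had a peak in replicate 1 only and 1 in replicate 2 only, and 45 had none in either library. With each library taken alone, 11 members had a promoter peak in replicate 1 and 8 in replicate 2, against 55.7% and 54.5% of all protein-coding genes. In the shorter, stricter peak lists of the authors 3 members remained, Pcdhac1, Pcdhac2 and Pcdhgc3, against 47.5% of all protein-coding genes.

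**Figure D1:**
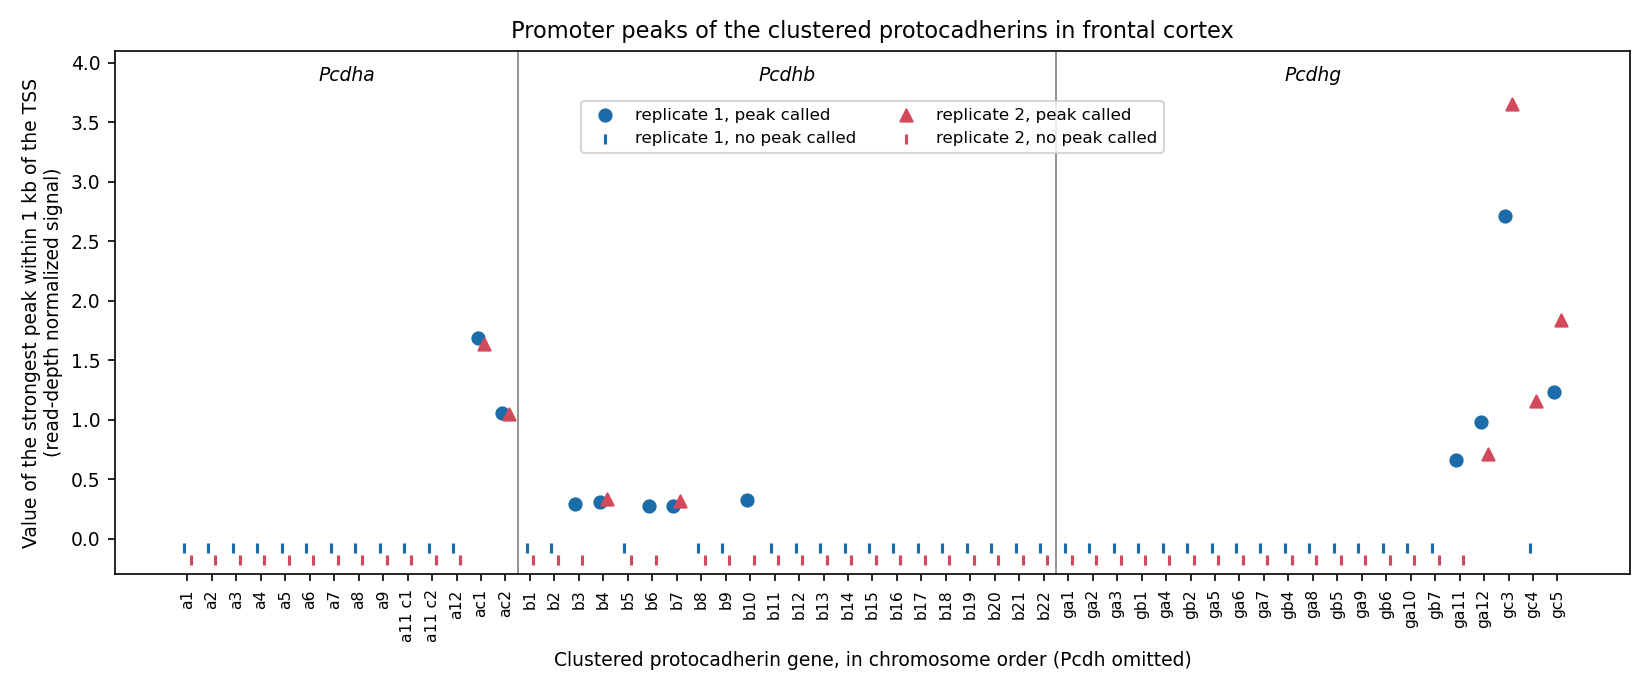
Value of the strongest promoter peak (vertical axis, read-depth normalized signal) of each of the 57 clustered protocadherins in chromosome order (horizontal axis), with circles for replicate 1 and triangles for replicate 2. Short marks below 0 show members with no peak called in that library; the C-type members and Pcdhga12 stand above 0.7 where called, and the called Pcdhb promoters lie between 0.271 and 0.337.

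Among the C-type members, which stand at the downstream ends of the Pcdha and Pcdhg clusters, Pcdhgc3 had the highest promoter value, 2.71 in replicate 1 and 3.65 in replicate 2 (3.18 ± 0.666, SD, n = 2). This placed it at the 63.0 and 72.5 percentile of all promoter values of its library. Its peak covered positions 37806221 to 37806480 of chromosome 18 in replicate 1 (mm10), and the peak centre lay 59 bp upstream of the TSS. The region also overlapped the noncoding gene BC037039. The Pcdhgc3 protein is a C-type cadherin known from mouse studies for its part in the branching of cortical dendrites.

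Pcdhac1 had a promoter value of 1.69 in replicate 1 and 1.64 in replicate 2 (1.67 ± 0.0318, SD, n = 2), and the libraries differed by 0.04 on the log2 scale. The peak of replicate 1 covered 37089841 to 37090080 of chromosome 18. A weaker peak followed in the first exon at 37090481 to 37090820, with 0.441 in replicate 1 and 0.337 in replicate 2.

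Pcdhac2, whose protein is needed in serotonin neurons for the even spacing of their axons in the mouse, had values of 1.06 and 1.05 (1.05 ± 0.00424, SD, n = 2). Its open region was the widest of those at the members, 1840 bp from 37143381 to 37145220, and most of it lay inside the first exon. The promoter window held 17 footprints in replicate 1 and 11 in replicate 2. A footprint is a short stretch inside open chromatin that is cut less often than its surroundings, as called by the authors.

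Pcdhgc5 had values of 1.23 and 1.84 (1.54 ± 0.429, SD, n = 2), with a log2 ratio of replicate 1 over replicate 2 of -0.58, the widest gap among the 7 members called in both. Its peak centre lay 212 bp upstream of the TSS in replicate 1 and 162 bp upstream in replicate 2.

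Pcdhgc4, the C-type member that is known to be needed for the survival of neurons in the mouse, was called in replicate 2 only, with a value of 1.16. In replicate 2 it had 2 peaks, at 37814977 to 37815155 with 0.582 and at 37815281 to 37815451 with 1.16. In the shorter peak list of replicate 2 its value was 0.582. In replicate 1 its promoter window held no base where the authors' false discovery rate for the cut rate was 0.05 or lower. Replicate 2 held 349 such bases, with a lowest rate of 2.06e-31. The libraries thus went apart at this promoter, and the reason was not tested.

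The variable Pcdha members, Pcdha1 to Pcdha12, had no promoter peak in either library, which holds for all 12 of them, with 2 genes named Pcdha11. Each encodes a Pcdha protein with its own set of extracellular domains, and the first 4 in chromosome order are Pcdha1, Pcdha2, Pcdha3 and Pcdha4. The stretch from position 36850858 to 37089840, which holds their promoters, had no peak in either library over 239 kb. At the level of single positions, 11 of the 12 had no base at a false discovery rate of 0.05 or lower in either library. Pcdha9 had 1 such base, at 0.0492 in replicate 1.

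Of the Pcdhb members, which have no shared constant exons, Pcdhb4 and Pcdhb7 were called in both libraries at low values. Pcdhb4 had 0.311 in replicate 1 and 0.337 in replicate 2 (0.324 ± 0.0185, SD, n = 2), and its peaks were centred 33 and 50 bp upstream of the TSS. Pcdhb7 had 0.271 and 0.32 (0.295 ± 0.0343, SD, n = 2), centred 43 and 18 bp upstream. Pcdhb3, with 0.288, Pcdhb6, with 0.271, and Pcdhb10, with 0.328, were called in replicate 1 only. All of these values were at or under the 1.57 percentile of promoter values in their library. The other 17 Pcdhb members had no peak, the first 4 in chromosome order being Pcdhb1, Pcdhb2, Pcdhb5 and Pcdhb8, and from the start of Pcdhb11 to the Taf7 promoter 222 kb held no peak in either library.

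Of the 18 variable Pcdhg members, Pcdhga12 was called in both libraries, with 0.978 in replicate 1 and 0.714 in replicate 2 (0.846 ± 0.187, SD, n = 2). Its peak lay inside the first exon, centred 371 bp downstream of the TSS in replicate 1 and 329 bp downstream in replicate 2. Pcdhga11, its upstream neighbour, had a peak in replicate 1 only, with a value of 0.661 centred 41 bp upstream of the TSS. In replicate 2 its window held 18 bases at a false discovery rate of 0.05 or lower, against 113 in replicate 1. The other 16 variable Pcdhg members, from Pcdhga1, Pcdhga2, Pcdhga3 and Pcdhgb1 onwards, had no promoter peak in either library. The variable Pcdhg promoters with a peak, Pcdhga11 in replicate 1 only, were thus those nearest to the C-type end of the cluster. The regions at both also overlapped the noncoding gene Gm26672, and which gene the opening belongs to was not tested.

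Over the 7 members called in both libraries the median of the mean promoter value was 1.05, with a range of 0.295 to 3.18. It was 0.661 over the members called in replicate 1 when replicate 2 was left out, and 1.67 over the 3 members called in both of the shorter peak lists. The median over all 11654 protein-coding genes called in both was 2.33, with a 10th percentile of 0.715 and a 90th percentile of 4.86. The median log2 ratio of replicate 1 over replicate 2 was -0.12 for the 7 members (SD 0.34) and -0.15 for all genes (SD 0.31), both over genes called in each library. Of the 12 members called in at least 1 library, 5 (41.7%) were called in 1 library only, against 6.93% of the 12522 such genes among all protein-coding genes. Among these 5, Pcdhb3, Pcdhb6, Pcdhb10 and Pcdhga11 had values from 0.271 (Pcdhb6) to 0.661 (Pcdhga11) in replicate 1. Pcdhgc4 had 1.16 in replicate 2, above the median of 1.05 of the 7 members called in both. The shares were not matched for peak value. The value was higher in replicate 2 for 57.1% of the called members and for 68.4% of all called genes.

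Positions with a significant cut rate do not need a peak call. Of the 57 members, 8 had, in both libraries, a base at a false discovery rate of 0.05 or lower, against 54.0% of all protein-coding genes, and 42 had none in either library. The count was 10 without replicate 1 and 13 without replicate 2, and 3 members had a base under 0.001 in both libraries. At 0.05 or lower, Pcdhgc3 had 1454 bases in replicate 1 and 378 in replicate 2, a gap that its peak value did not show in the same direction. By the same limit Pcdhgc5 had 146 and 390. Pcdhac1 had 1293 and 1028, and Pcdhac2 had 1153 and 1091. Pcdhga12 had 265 and 136, Pcdhb4 had 125 and 44, and Pcdhb7 had 117 and 67. Both Pcdhb promoters had none under 0.001.

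Footprints were called in the promoter window in both libraries for 4 of the 57 members, against 51.7% of all protein-coding genes. The 4 were the C-type members Pcdhac1 with 5 and 3 footprints, Pcdhac2 with 17 and 11, Pcdhgc3 with 6 and 4, and Pcdhgc5 with 1 and 4. Pcdhgc4 had 0 in replicate 1 and 2 in replicate 2. Taken alone, replicate 1 had footprints at 9 members and replicate 2 at 5.

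The members' promoters are not all poor in CpG, the dinucleotide that marks broadly open promoters. The 1 kb around the TSS held a median of 30 CpG over the members (range 6 to 67), against 37 over all protein-coding genes and 63 over those called in both libraries. By family the median was 35.5 for Pcdha, 15 for Pcdhb, 33 for Pcdhg and 44 for the C-type members. When all genes were split into 10 bins by CpG number, the bin of 23 to 37 CpG held 25 members, of which 0 were called in both libraries, where 51.8% of all genes in the bin were. In the next bin, of 38 to 50 CpG, 1 of 9 members was called, where 82.4% of all genes were. In the CpG-poor bins the counts lay nearer to the share of all genes. At 15 to 22 CpG 3 of 10 members were called, Pcdhb4, Pcdhb7 and the C-type Pcdhgc5, against 21.6%. At 10 to 14 CpG 1 of 9 members was called, Pcdhga12, against 9.3%, and at 6 to 9 CpG 0 of 2, against 4.4%. None of these called members was called in both of the shorter peak lists. Pcdhac2 with 55 CpG and Pcdhgc3 with 67 were the only members in their bins, and both were called.

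**Figure D2:**
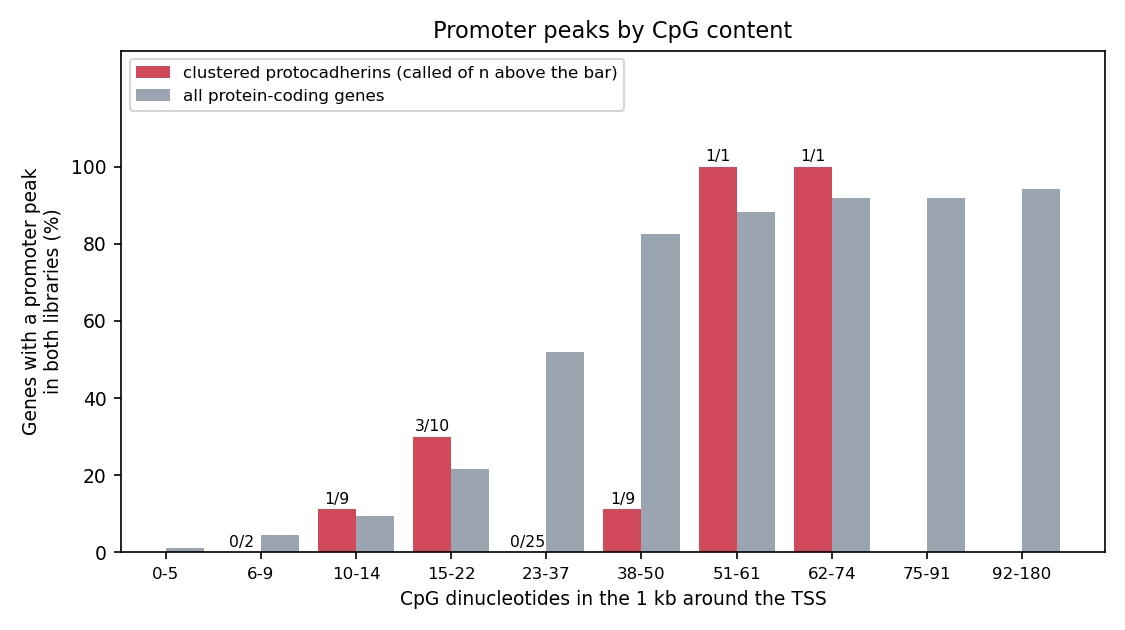
Share of genes whose promoter was called in both libraries (vertical axis, %) in 10 bins of the number of CpG in the 1 kb around the TSS (horizontal axis), for the clustered protocadherins (red, called of n above each bar) and all protein-coding genes (grey). At 23 to 37 CpG 0 of 25 members were called, where 51.8% of all genes were.

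The first exons of a family resemble each other, and reads that match several places can be lost in alignment. Of all 36-base words in a member's promoter window, a median of 96.1% occurred once in the mm10 genome, with a range of 75.6% to 100%. The variable Pcdha members had the lowest share, a median of 89.3%, followed by the variable Pcdhg members with 98.5%, and over all Pcdhb members it was 100%. The C-type members had 99.5% or more. Among Pcdhb genes, Pcdhb4 and Pcdhb7, called in both libraries, had 92.1% and 85.6% unique words. Those called in neither library ranged from 80.7% (Pcdhb9) to 100% (Pcdhb1 among others). With 76-base words no member was under 89.2%. The part of read alignment in the missing peaks was not tested.

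Other genes of the same biology were set beside the clusters. The nonclustered delta protocadherins are single genes with ordinary promoters, and 10 of 10 were called in both libraries, with a median value of 1.99 and the highest values at Pcdh10 (5.63 ± 1.05, SD, n = 2), Pcdh9 (5.16 ± 0.757), Pcdh17 (3.8 ± 0.502) and Pcdh1 (3.16 ± 0.276). Of 13 other large adhesion genes 11 had one, led by Celsr3 (2.51 ± 0.0457), Fat1 (2.3 ± 0.31), Celsr2 (2.03 ± 0.497) and Cdh8 (1.69 ± 0.121), and Dchs1 and Celsr1 had none. Binding and signalling partners of the clustered protocadherins were called for 10 of 10 genes. Their highest values were at Wasf1, a subunit of the WAVE complex that drives actin branching (4.82 ± 0.361), the kinase Fyn (4.05 ± 0.841), the synaptic adhesion gene Nlgn2 (3.7 ± 0.293) and the GTPase Rac1 (3.6 ± 0.256). All these shares stand beside 53.1% for protein-coding genes as a whole.

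Among 14 genes known to act on the clusters, the promoters of 12 were called in both libraries, against 53.1% of all protein-coding genes. The highest were the cohesin subunits Smc3 (6.54 ± 0.0961, SD, n = 2) and Rad21 (4.17 ± 1.4), the cohesin release factor Wapl (4.36 ± 0.659) and the histone methyltransferase Setdb1 (3 ± 0.612). Ctcf had 1.91 in replicate 1 and 3 in replicate 2 (2.45 ± 0.769). Stag1 and Dnmt1 had none at the TSS used, and all 14 were called when any annotated TSS was allowed, against 61.5% of all protein-coding genes under that setting. The clustered protocadherins called were again 7 of 57.

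Across the clusters and 200 kb on either side, a span of 1312 kb from 36730184 to 38041873 of chromosome 18, overlapping peaks were joined into 71 regions. Of these, 40 (56.3%) were called in both libraries, against 53.6% of all regions of the genome. Replicate 1 alone had 22 more and replicate 2 alone had 9. The regions called in both numbered 3.05 per 100 kb, against 2.15 per 100 kb in the genome. Without the flanks, from Pcdha1 to the end of the Pcdhg cluster, they numbered 1.75 per 100 kb. They were spread unevenly. The 200 kb downstream of the Pcdhg cluster held 8.5 per 100 kb, the gap between Pcdha and Pcdhb 3.88, the 200 kb upstream of Pcdha1 3.5, the Pcdha cluster 2.33 and the Pcdhg cluster 2.22. The Pcdhb cluster held 0.771 and the gap between Pcdhb and Pcdhg 0.728, where the only region was the promoter of Taf7, a general transcription factor subunit (3.63 ± 0.818, SD, n = 2). In the flanks, the promoters of 10 of 13 other protein-coding genes were called in both libraries, against 53.1% of all protein-coding genes. Ndufa2 and Ik shared 1 peak per library, as did Hdac3 and Rell2, so the genes called outnumber the peaks. Hars had no call at the TSS used, though the region called for Hars2 covered the annotated start of Hars.

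**Figure D3:**
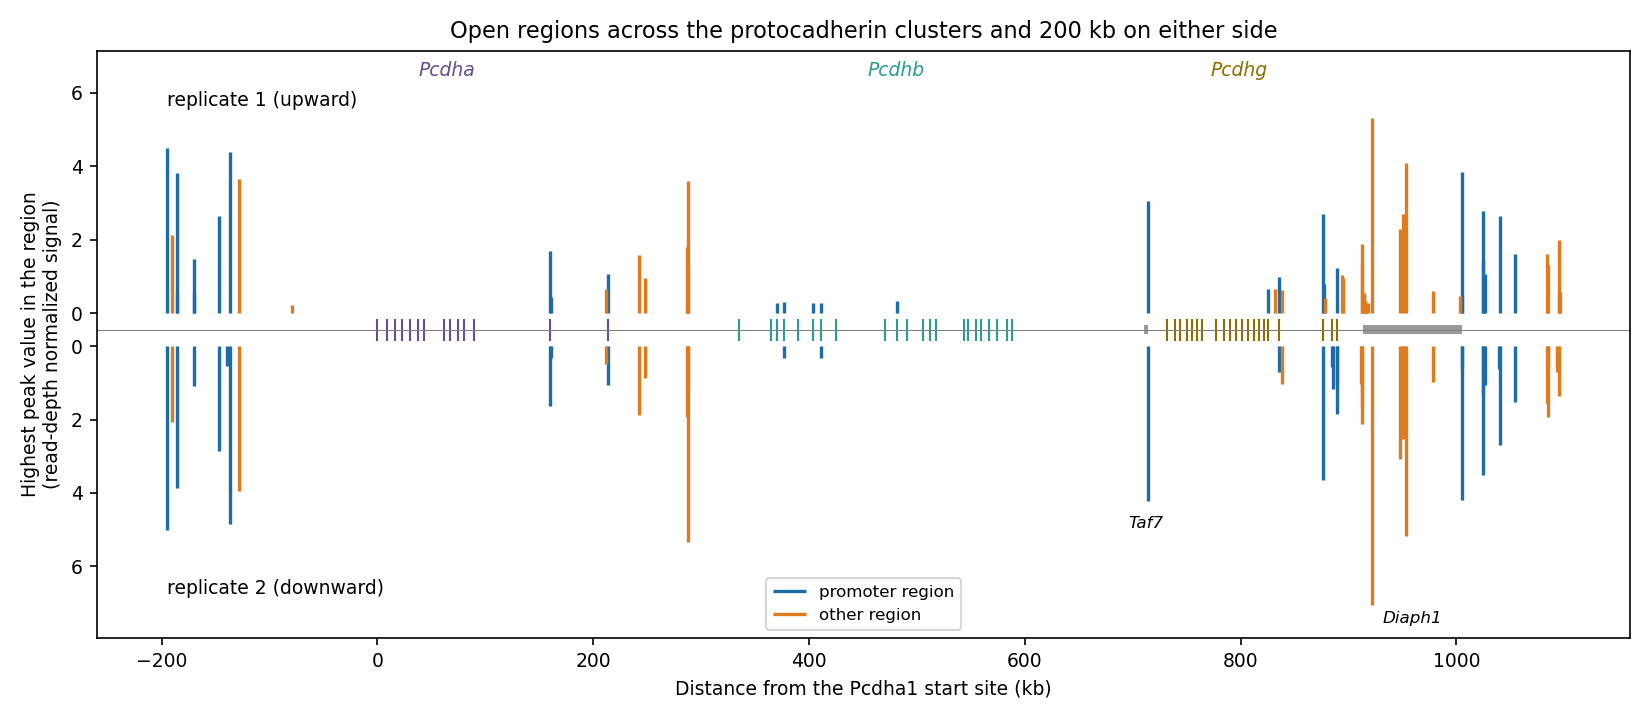
Highest peak value of each open region (vertical axis, read-depth normalized signal, replicate 1 upward and replicate 2 downward) by distance from the Pcdha1 TSS (horizontal axis, kb), with promoter regions in blue and other regions in orange; ticks on the middle line are the member start sites and grey bars are Taf7 and Diaph1. The tall orange lines lie upstream of Pcdha1, in the gap between Pcdha and Pcdhb and inside Diaph1, while the Pcdhb ticks carry only low lines.

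Outside the promoters of protein-coding genes, 19 regions were called in both libraries, and there were 25 without replicate 1 and 35 without replicate 2. Start sites of noncoding genes were not counted as promoters, so these non-promoter regions can include them. No deposited file names enhancers, so the regions are given by position, and none is equated with an enhancer known from other work. The strongest lay at 37852161 to 37852400, in an intron of Diaph1, which encodes an actin-nucleating formin and is the first protein-coding gene past the Pcdhg cluster. It had 5.32 in replicate 1 and 7.05 in replicate 2 (6.18 ± 1.22, SD, n = 2), it stood 10.4 kb beyond the end of the Pcdhg cluster, and its mean was at the 99.9 percentile of non-promoter regions called in both libraries. The second lay at 37883561 to 37883760, 41.8 kb beyond the cluster and also in an intron of Diaph1, with 4.08 and 5.18 (4.63 ± 0.781, percentile 99.6).

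The third lay in the gap between Pcdha and Pcdhb at 37218241 to 37218460, 30.7 kb beyond the end of the Pcdha cluster, with 3.6 in replicate 1 and 5.33 in replicate 2 (4.47 ± 1.23, percentile 99.5). A further pair of regions stood beside it. That at 37217361 to 37217560 had 1.79 and 1.94, and that at 37217801 to 37218080 had 1.32 and 1.18. GENCODE places all of them in introns of Gm42416, Gm37013 and Gm37388, annotated genes that run from the Pcdha into the Pcdhg cluster and had no promoter peak in either library. In each library, the 3 strongest non-promoter regions of the whole span had higher values than Pcdhgc3, the highest member promoter. So did the fourth, upstream of Pcdha1, which overlapped the noncoding gene Vaultrc5.

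**Figure D4:**
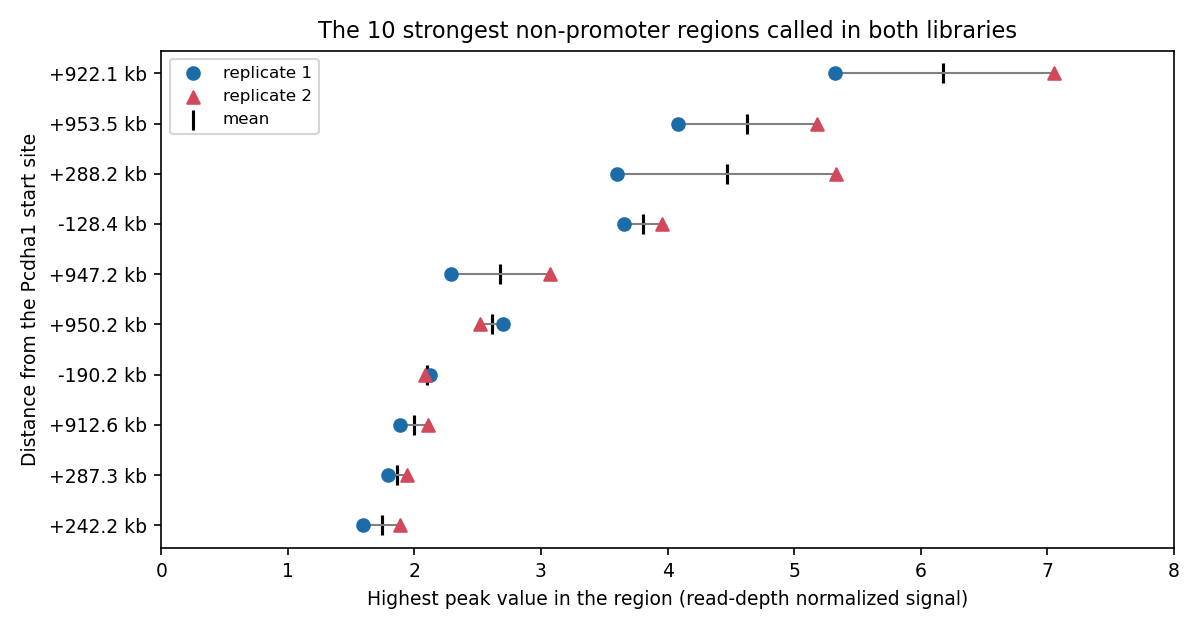
Highest peak value (horizontal axis, read-depth normalized signal) of the 10 strongest non-promoter regions called in both libraries, listed by their distance from the Pcdha1 TSS (vertical axis), with circles for replicate 1, triangles for replicate 2 and a black bar for the mean. The strongest has 5.32 and 7.05, and the 10th has 1.59 and 1.89.

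The remaining regions of the 10 strongest stood on both sides of the clusters. Inside Diaph1 introns, 37877221 to 37877600 had 2.29 and 3.07, and 37880201 to 37880480 had 2.7 and 2.52. At 37842578 to 37842960, in the intergenic stretch 0.895 kb past the end of the Pcdhg cluster, the values were 1.89 and 2.11. Within the Pcdha cluster, 37172281 to 37172520 had 1.59 and 1.89 and overlapped the noncoding genes Gm10544 and Gm38097, downstream of the Pcdhac2 first exon. Upstream of Pcdha1, 36801641 to 36802000 overlapped the vault RNA gene Vaultrc5, with 3.66 and 3.96, and 36739901 to 36740060 lay in an intron of Tmco6, with 2.12 and 2.08. In the Pcdhg cluster, the strongest non-promoter region called in both was at 37768161 to 37768418 inside the Pcdhga12 exon, with 0.633 and 1.04. The Pcdhb cluster had no non-promoter region called in both. All 36-base words of the 10 strongest regions were unique in the genome.

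Near the end of Diaph1, replicate 1 had 6 weak regions between 37843801 and 37848040 that replicate 2 lacked, with values of 0.203 to 0.559. In exons of the Pcdhg cluster, replicate 1 alone had regions at 37808361 to 37808504, with 0.418, at 37824265 to 37824371, with 1.03, and at 37825031 to 37825107, with 0.966. Replicate 2 alone had one at 37841502 to 37841698, with 1.04. These stand without a second library.

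The clusters are known for paired CTCF sites, so the 12-letter core CTCF consensus, a motif with degenerate positions, was searched on both strands. An exact match lay in the promoter window of 6 of 57 members (10.5%), where 1.69% of all protein-coding promoters had one. The 6 were all variable Pcdha members, Pcdha1, Pcdha4, Pcdha6, Pcdha7, Pcdha8 and Pcdha12. Each match was on the strand of the gene and began 537 to 581 bp downstream of the TSS, inside the first exon. The Pcdha first exons are similar in sequence, so the matches are not independent of each other. With at most 1 mismatch the count was 13 of 57 (22.8%), against 20.7% of all promoters. None of the exact matches at members lay in a peak, and no statement about CTCF itself follows from a match or its absence.

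The orientation of the exact matches changed along the locus. The Pcdha cluster had 6 exact matches, all on the plus strand, which is the strand of the members. The Pcdhb cluster had 13, all on the minus strand, in the first exons of 13 of the 22 Pcdhb members and 2271 to 2810 bp downstream of their TSS. None of these 13 lay in a peak of both libraries. In windows of 2500 bp on either side of the TSS, 19 of 57 members held an exact match, against 3.92% of all protein-coding genes, and these matches are not independent of each other either. Such a window can hold a match in a neighbouring member's exon and can miss a member's own match beyond 2500 bp. The Pcdhg cluster had 0 exact matches, and the whole span had 24. With at most 1 mismatch each cluster had matches on both strands. The Pcdha cluster had 15 plus and 11 minus, the Pcdhb cluster 4 plus and 22 minus, and the Pcdhg cluster 8 plus and 11 minus.

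Matches under both a peak and a footprint in both libraries were mostly in non-promoter regions. The exact match at 37217468 to 37217479, on the minus strand, lay in the gap between Pcdha and Pcdhb. That at 37883728 to 37883739, also on the minus strand, lay in the second strongest region. The strongest region held 2 matches with 1 mismatch on the minus strand, and the third strongest held 1. Of all 132 matches with at most 1 mismatch, 7 lay in a peak in both libraries, of which 6 were on the minus strand. All 7 overlapped a footprint in both libraries.

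Within 300 bp around the region centre, 2 of the 10 strongest non-promoter regions held an exact match (20%), against 10.8% of all non-promoter regions called in both libraries. With at most 1 mismatch the count was 4 of 10 (40%), against 29.6%. With 10 regions, 1 region more or less moves the share by about as much as the difference, so the share says nothing particular about them.

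**Figure D5:**
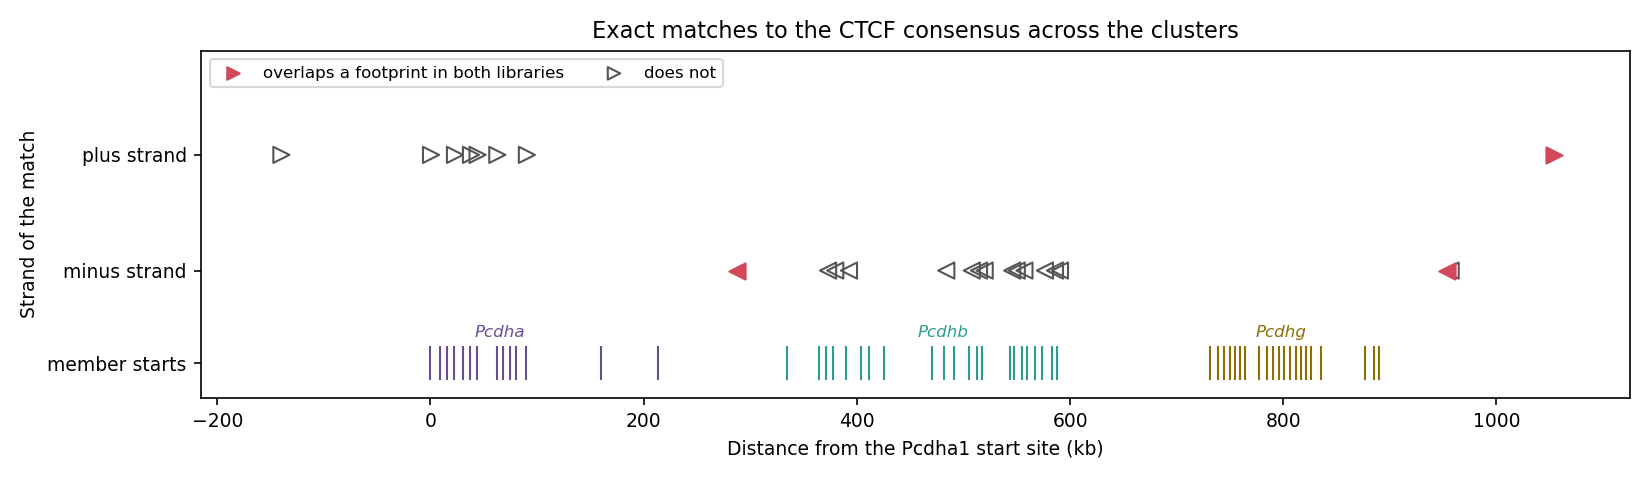
Exact matches to the CTCF consensus by distance from the Pcdha1 TSS (horizontal axis, kb) and strand (vertical axis), filled where they overlap a footprint in both libraries; ticks in the lowest row are the member start sites. The 6 matches of the Pcdha cluster point right and the 13 of the Pcdhb cluster point left, all unfilled, and the filled left-pointing pair lies past the Pcdha cluster and past the Pcdhg cluster, with a filled right-pointing match at the far right.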

How the data were processed

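The description files deposited per library state that its peaks, footprints and false discovery rates were made on mm10 from its own alignment, not from pooled libraries. No source used here gives the aligner, the callers or the depth of sequencing. The peak value is the authors' read-depth normalized signal, on a scale that is not stated; the longer of the 2 deposited lists per library was used. The deposited false discovery rate table (a q-value per position) lists positions of at most 0.05. The deposited footprint lists carry 1 constant, 0.01, read as the threshold.

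Genes came from GENCODE vM21, in which 2 genes have the symbol Pcdha11, both kept; Pcdhgb8, annotated as a pseudogene, was no member. Peaks overlapping by at least 1 bp were joined into regions, and a region whose centre lay within 1 kb of any TSS of a protein-coding gene was a promoter region. Consensus scans, word counts and overlaps were computed with Python 3.11, pandas 2.3.3, NumPy 2.4.6 and numba 0.67.0 and tested on simulated data. With 1 group of 2 libraries, values are given per library with mean and SD, and no test was run.

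Named were all C-type members, per family up to 4 of the highest and lowest called members, those called in 1 library, the first 4 uncalled, the 10 strongest non-promoter regions and the strongest per interval, and per list up to 4 of the highest and those uncalled. Members and lists were chosen with earlier results of these data known.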

Additional observations from a re-analysis of the deposited data

How the results depend on the processing

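Of 111 alternative values for 20 results, 92 moved by less than the set limits, and 19 moved further. The shorter peak list left 3 members called in both libraries, 0 Pcdhb, 1 Pcdhg and 0 variable members, with a median value of 1.67. Windows of 500 bp and 2500 bp on either side of the TSS gave 0 and 19 members with an exact CTCF match, and allowing 1 mismatch gave 13. A false discovery rate under 0.001 left 3 members with a position in both libraries. Values divided by the library median had a median of 1.62, which is a change of scale. With 1 library at a time, members with a promoter peak numbered 8 to 11, Pcdhb members 2 to 5 and variable members 3 to 7, and the median value was 0.661 to 1.1. Members with a footprint numbered 5 to 9, members with a significant position 10 to 13, regions 51 to 63 and non-promoter regions 25 to 35; without replicate 2 every one of these counts was at its upper end. Other causes of these moves were not tested. No paired analysis was possible because there was 1 group. Depth limits the absence of a peak: a promoter open in few cells may lie under the call, and with 2 libraries and groups of 2 no library could be checked as an outlier.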
